A study of Mus musculus with 6 samples.

Results

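The C-type lectin receptors of myeloid cells were followed in RNA-seq libraries of mouse CD8T cells that had been cocultured with control or DB2313-treated macrophages. The genes were taken by name from a fixed list of 10 symbols: Clec4n, Clec4a2, Clec4a4, Clec4d, Clec4e, Clec5a, Clec7a, Clec10a, Clec12a and Clec6a. Of these, 9 had a row among the 54532 genes of the count table, and no row was named Clec6a, which RefSeq (GRCm38.p6) gives as another name of Clec4n. CD8T cells had been isolated from mouse spleen, stimulated with anti-CD3/28 beads and cocultured over 24 hr. The macrophages had beforehand received IFN-γ at 10 ng/mL over 12 hr. Those of the control group had no DB2313, and those of the DB2313 group had been exposed to this compound, which blocks DNA binding by Spi1 (PU.1) and was used at 14 nM according to the methods. Each group had 3 libraries. The macrophages of the study were peritoneal cells elicited with thioglycolate, and the strain, sex and age of the donor mice were not given for these cultures. GEO's labels call the cocultured cells DC cells and the paper calls them macrophages, and no source says whether the 3 samples of a group were separate cultures, so the p-values measure the spread between these samples, which may be technical.

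C-type lectin receptors are membrane proteins that bind sugars or lipids of microbes and of damaged cells, and they are known mainly from macrophages, dendritic cells and neutrophils. Activating members signal through the kinase Syk and the adaptor Card9, either by a tyrosine motif of their own, as in Clec7a (Dectin-1), or through the adaptors Fcer1g and Tyrobp (DAP12). Inhibitory members such as Clec4a2 (DCIR) and Clec12a (MICL) carry a motif in their tail that recruits phosphatases, and endocytic members such as Clec10a (MGL1) take up galactose-type glycans.

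The libraries held 16611975 to 18596217 counts on genes. Markers of several cell types were counted in every library. Counts on the 25 macrophage markers made up 1.46 to 1.49% of a control library and 0.678 to 0.691% of a DB2313 library, and of 23 tested 19 fell and 3 rose. Vsig4 had no count in any library and Timd4 at most 3. The 11 neutrophil markers took 0.195 to 0.196% and 0.0727 to 0.0746%, with 10 lower. The 10 dendritic cell markers took 0.0333 to 0.0346% and 0.0155 to 0.0163%, with 7 of 9 tested lower and Siglech at 0 in all libraries. Without markers that passed the filter on low counts through 1 group alone, 18 of 22 macrophage, 10 of 10 neutrophil and 6 of 8 dendritic cell markers were lower. All 20 T cell markers rose, and their summed share was 0.370 to 0.375% without and 0.596 to 0.601% with DB2313. Fewer cells of a type and less RNA per cell cannot be told apart in such libraries, and the part of these shifts in the results for the lectin receptors was not tested. Spi1 itself, the target of the inhibitor, went from 286 ± 6.75 to 156 ± 6.20 CPM (SD, n = 3 each), CPM being counts scaled to library size after TMM normalization.

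Most of the receptor genes fell in the DB2313 group with TMM scaling, 1 rose and the most abundant one kept its level. Clec7a, Clec4d, Clec4a2 and Clec5a were 2.45-, 2.55-, 2.43- and 2.16-fold lower, Clec4e and Clec12a fell by less, and Clec10a rose 2.26-fold. In all, 7 of the 9 genes were lower and 1 was higher at an adjusted p under 0.05 (quasi-likelihood test of edgeR, adjusted by Benjamini-Hochberg over all 14883 tested genes), where 24.6% of all tested genes were lower and 20.8% were higher. With a fold change of more than 2 asked for as well, a gene being termed called only then, 5 of the 9 were called lower against 5.3% of all tested genes, and 1 was called higher against 1.37%. The groups did not overlap in 8 of the 9 genes, against 53.1% of all tested genes. The median log2 fold change of the 9 was -1.11, beside 0.019 over all tested genes. All 9 passed the filter on low counts, Clec4a4 through the control libraries alone, so that it had to differ. Without it, 6 of 8 genes were lower, 4 of them called, and the median was -0.91. With libraries scaled to the summed macrophage markers in place of TMM, 3 of the 9 genes were lower and 4 were higher, with 1 and 2 called. Under this scaling 322 of the 14883 tested genes were lower and 13494 were higher, with 139 and 10626 called. The receptor gene called lower there was Clec4a4, whose direction the filter had fixed.

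**Figure D1:**
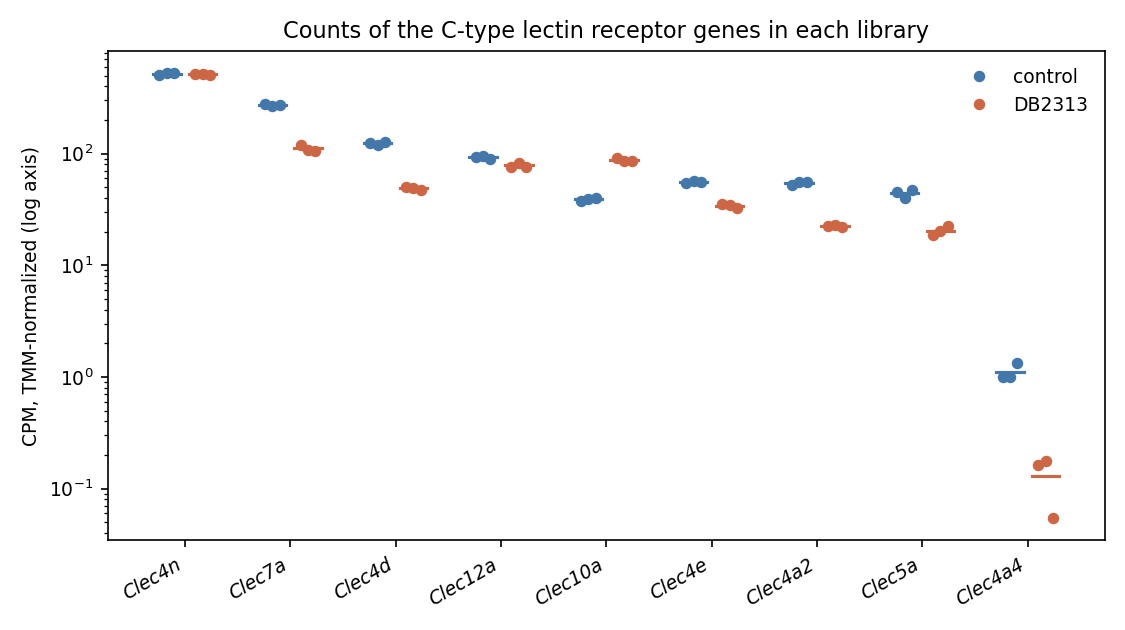
CPM (TMM-normalized, log axis) of the 9 receptor genes in each library, ordered by their mean, with blue points for the 3 control libraries, orange points for the 3 DB2313 libraries and bars for the group means. Clec4n stays near 515 to 520.3 CPM in both groups, Clec10a is higher with DB2313, and the other 7 genes are lower.

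Clec4n, Clec4d and Clec4e, which pair with Fcer1g, lie side by side on chromosome 6. Clec4n (Dectin-2, a receptor for fungal mannans; ENSMUSG00000023349, GRCm38 chromosome 6 from 123229843 to 123247021, plus strand) had 9195, 8995 and 8643 counts without DB2313 and 9649, 8783 and 9342 counts with it. After TMM normalization this was 509.6, 523 and 528 CPM against 522, 515 and 508 CPM, with full overlap of the groups. Its log2 fold change was -0.015 with a 95% interval from -0.08 to 0.05 and did not pass (adjusted p = 0.733, edgeR). The sign of this value depends on the scaling, at 0.08 with library size scaling, where it passed (adjusted p = 0.0341, edgeR). It was -0.60 and 1.18 with libraries scaled to the T cell and the macrophage markers. Both values passed, in opposite directions (adjusted p = 3.63e-14 and 6.34e-20, edgeR), under scalings that shift all genes.

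Clec4d (MCL, which binds mycobacterial cord factor together with Clec4e; ENSMUSG00000030144, chromosome 6 from 123262111 to 123275265, plus strand) was at 125, 121 and 128 CPM in the control libraries and at 50.5, 48.9 and 47.1 CPM with DB2313. Every control library thus lay more than 2-fold above every DB2313 library. Its log2 fold change was -1.35 (SE 0.047, adjusted p = 5.81e-17, edgeR), and -0.15 with libraries scaled to the macrophage markers, which is no call.

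Clec4e (Mincle, which recognizes the same glycolipid and the nuclear protein Sap130 released from dead cells; ENSMUSG00000030142, chromosome 6 from 123281789 to 123289870, minus strand) was at 54.98, 56.4 and 56.2 CPM in the control libraries and at 35.4, 35.0 and 32.6 CPM with DB2313. The groups were separate, but the fall was smaller than that of its neighbour Clec4d, with a log2 fold change of -0.70 (SE 0.061, adjusted p = 1.41e-09, edgeR), which turned to 0.49 with libraries scaled to the macrophage markers.

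Clec7a and Clec5a are activating receptors with other signalling partners. Clec7a, the β-glucan receptor Dectin-1 (ENSMUSG00000079293, chromosome 6 from 129461591 to 129472779, minus strand), had 5021, 4634 and 4484 counts without DB2313 and 2226, 1854 and 1955 counts with it. These are 278, 269.6 and 274 CPM against 121, 109 and 106 CPM, so that every DB2313 library lay far under the lowest control library. The log2 fold change was -1.29 (SE 0.042, adjusted p = 1.75e-17, edgeR), and -0.096 with libraries scaled to the macrophage markers, which is no call. The count table lists the gene as a polymorphic pseudogene, a biotype that annotations give to genes intact in some strains only.

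Clec5a (MDL-1, a partner of Tyrobp that takes part in inflammatory responses of monocytes; ENSMUSG00000029915, chromosome 6 from 40574894 to 40585821, minus strand) was at 45.0, 40.0 and 47.6 CPM in the control libraries and at 18.7, 20.3 and 22.4 CPM with DB2313. Its SD was 8.76% of the mean in the control group and 9.24% with DB2313, and the groups did not overlap. Its log2 fold change was -1.11 (SE 0.082, adjusted p = 6.90e-11, edgeR), and 0.088 with libraries scaled to the macrophage markers.

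Among the inhibitory receptors the changes ranged from small to large. Clec4a2 (DCIR, which restrains dendritic cell responses; ENSMUSG00000030148, chromosome 6 from 123106428 to 123143999, plus strand) was at 52.6, 55.3 and 55.2 CPM in the control libraries and at 22.4, 22.8 and 21.9 CPM with DB2313. Its replicates lay close together, and its log2 fold change was -1.28 (SE 0.066, adjusted p = 7.92e-14, edgeR), which did not pass with libraries scaled to the macrophage markers (-0.085).

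Clec4a4 (DCIR2, a marker of a subset of dendritic cells; ENSMUSG00000059639, chromosome 6 from 122990367 to 123024105, plus strand) was hardly counted, with 18, 17 and 22 counts in the control libraries and 3, 3 and 1 with DB2313. The summed counts, 57 against 7, give a level 8.51-fold higher in the control group with an exact 95% counting interval from 3.87 to 22.1, which covers counting error only. The fitted log2 fold change was -3.02 (SE 0.54, adjusted p = 7.11e-05, edgeR), and its size depends on a few reads. Clec4a4 passed the filter on low counts through the control libraries alone and could only be lower. This p-value and the interval therefore do not test whether it fell. Of the runs of 50 bases in its transcript, 15.7% also occur in Clec4a2, so reads of the pair could have been divided either way.

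Clec12a (MICL, which binds uric acid crystals and dampens neutrophil activation; ENSMUSG00000053063, chromosome 6 from 129342691 to 129365303, plus strand) was at 93.9, 95.5 and 90.4 CPM in the control libraries and at 76.4, 82.6 and 76.5 CPM with DB2313. The groups did not overlap, although they were only a few CPM apart. Its log2 fold change of -0.25 (SE 0.047, adjusted p = 1.13e-04, edgeR) passed the test and turned to 0.95 with libraries scaled to the macrophage markers.

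Clec10a was the only one of the 9 genes that rose. Clec10a (MGL1, a receptor for galactose and N-acetylgalactosamine that is known from alternatively activated macrophages and dendritic cells; ENSMUSG00000000318, chromosome 11 from 70156197 to 70170834, plus strand) had 678, 676 and 651 counts without DB2313 and 1701, 1465 and 1581 counts with it. In CPM this was 37.6, 39.3 and 39.8 against 92.1, 85.9 and 85.9, with all DB2313 libraries above the highest control. The log2 fold change was 1.18 (SE 0.055, adjusted p = 1.40e-14, edgeR), a value exceeded by under 1% of all tested genes (percentile 99.1). With libraries scaled to the T cell markers it was 0.59, still past the adjusted p (1.23e-09, edgeR) but below the fold asked of a call.

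The neighbouring paralog of Clec10a moved the other way with TMM scaling. Mgl2 (MGL2, chromosome 11 from 70130329 to 70137550), which lies 18646 bases from Clec10a and was singled out after its values had been seen, had 4051, 3954 and 4088 counts without DB2313 and 3331, 2990 and 2971 counts with it. Its log2 fold change was -0.45 (SE 0.044, adjusted p = 1.13e-08, edgeR). Values of Mgl2 under the other scalings are not given here. Scaling to the macrophage markers moved the median of all tested genes from 0.019 to 1.22, so the direction of Mgl2 depends on the scaling too. Within libraries, the ratio of Clec10a to Mgl2 counts was 0.167, 0.171 and 0.159 in the control group and 0.511, 0.490 and 0.532 with DB2313, a change that needs no normalization between libraries (p = 0.1 by a two-sided exact permutation test, and no smaller p is possible with groups of 3). The transcripts of both genes share some sequence. Of the runs of 50 bases, 9.02% of those of Clec10a and 13.1% of those of Mgl2 also occur in some other gene. Clec10a and Mgl2 have 270 such runs in common. How the authors' counting treated such reads was not given in the sources used here.

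Levels were compared between genes only per length, as CPM per kilobase of the gene length in the table. In the control group, Clec4n led with 366 ± 6.73, followed by Clec7a with 104 ± 1.64, Clec4d with 77.7 ± 2.14, Clec4a2 with 18.59 ± 0.530, Clec12a with 16.9 ± 0.469, Clec10a with 13.4 ± 0.4004, Clec5a with 11.5 ± 1.01, Clec4e with 11.2 ± 0.154 and Clec4a4 with 1.43 ± 0.261 (SD, n = 3). Clec5a and Clec4e did not differ beyond their spread, while no other neighbours in this order overlapped. With DB2313, Clec4n kept 363 ± 5.16 CPM per kilobase. Clec10a moved from the sixth place to the fourth, at 30.3 ± 1.23, where its range overlapped with that of Clec4d at 30.5 ± 1.04 (SD, n = 3). Clec4n ranked 132nd of the 14883 tested genes on this scale, Clec7a 715th and Clec4d 1047th, and Clec4a4 was 12511th.

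Within each library, the counts per base of the 9 genes were also taken as shares of their sum, a measure that does not depend on scaling between libraries. Clec4n made up 59.0% ± 0.556 of the sum in control libraries and 72.5% ± 0.416 with DB2313 (SD, n = 3 each). The share of Clec7a went from 16.7% ± 0.390 to 8.47% ± 0.415 and that of Clec4d from 12.5% ± 0.275 to 6.10% ± 0.0896, while that of Clec10a went from 2.16% ± 0.0436 to 6.06% ± 0.146. The shares of Clec12a, 2.72% ± 0.105 and 2.84% ± 0.143, were alike within their spread. Summed over the 9 genes, the share of the library was 0.117% ± 0.000816 without and 0.0949% ± 0.00171 with DB2313.

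**Figure D2:**
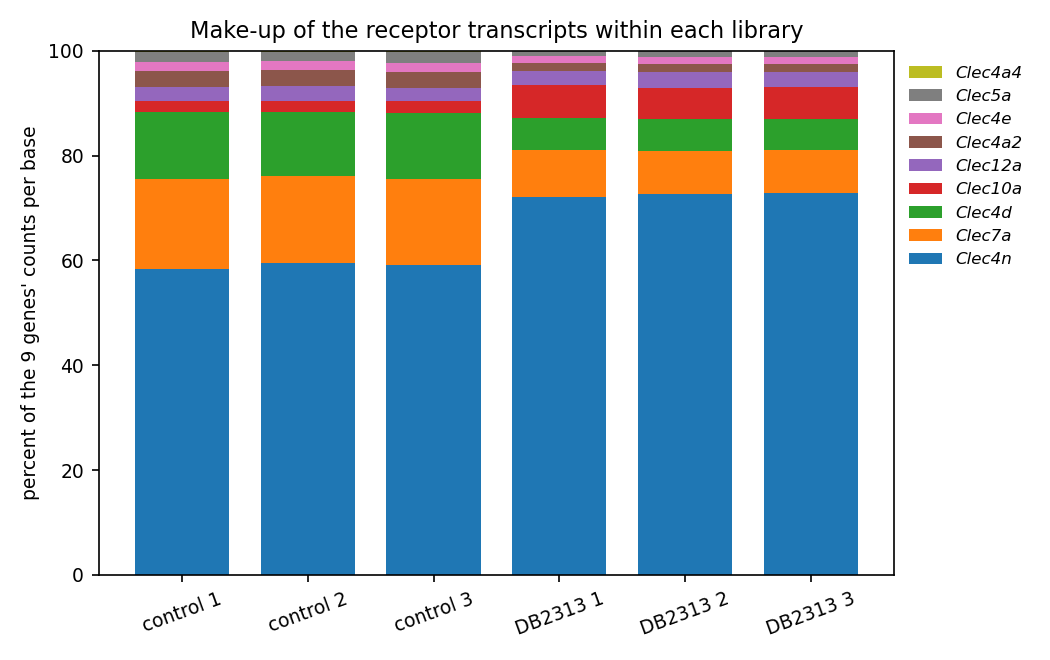
Make-up of the receptor transcripts in each of the 6 libraries, as percent of the 9 genes' summed counts per base. The Clec4n part is wider in the DB2313 libraries (72.5% against 59.0%), the Clec7a and Clec4d parts are narrower, and the Clec10a part grows from 2.16% to 6.06%.

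Ratios of counts were formed for all 36 pairs of the 9 genes and for Clec10a to Mgl2. In 30 of the 36 pairs the ratios of the groups did not overlap, and in 22 of the 28 pairs without Clec4a4. The share over pairs of other genes was not computed, and 53.1% of single tested genes did not overlap. The pairs also share genes, so these counts are a description only. Each ratio without overlap reached an exact permutation p of 0.1, the smallest possible, and 0.119 after Benjamini-Hochberg adjustment over the 37 ratios. No ratio could thus pass in a design of this size. Clec4n to Clec4d, whose genes are 15089 bases apart, was at 4.09, 4.33 and 4.14 in the control libraries and at 10.4, 10.5 and 10.8 with DB2313. Clec4d to Clec4e, 6523 bases apart, went from 2.27, 2.14 and 2.27 to 1.43, 1.40 and 1.45, so these 3 neighbours changed unequally. Clec7a to Clec10a went from 7.41, 6.86 and 6.89 to 1.31, 1.27 and 1.24.

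The 6 pairs with overlapping ratios were those among Clec4a2, Clec4d, Clec5a and Clec7a. For Clec4d to Clec7a the ratio was 0.448, 0.448 and 0.466 in the control libraries and 0.419, 0.4498 and 0.443 with DB2313 (two-sided exact permutation test, p = 0.3). For Clec4a2 to Clec7a it was 0.199 ± 0.00851 and 0.201 ± 0.0128 (SD, n = 3 each; exact permutation test, p = 0.7). These 4 genes of different signalling types thus had log2 fold changes within a narrow range, from -1.35 to -1.11.

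The direction of several genes depended on what the libraries were scaled to. The median of all tested genes stood at 0.019 with TMM and 0.11 with library size scaling. It was -0.56 with scaling to the T cell markers and 1.22 with scaling to the macrophage markers. Relative to this median, the changes hardly moved with the scaling. That holds by construction, because a scaling shifts all genes by nearly the same amount. With TMM, Clec10a lay at 1.16 relative to the median, Clec4n at -0.034, Clec12a at -0.27, Clec4e at -0.72, Clec5a at -1.13, Clec4a2 at -1.30, Clec7a at -1.31 and Clec4d at -1.37. The macrophage markers had a median log2 fold change of -0.83 and ranged from -2.16 to 1.44. The medians of the neutrophil and dendritic cell markers were -1.70 and -1.58. Without markers that passed the filter on low counts through 1 group alone, these medians were -0.82, -1.71 and -1.05 in the same order. The neutrophil median was lower than the change of every receptor gene but Clec4a4. Clec4d, Clec7a, Clec4a2 and Clec5a lay lower than the dendritic cell median of -1.05. Set against the macrophage median, Clec4d, Clec7a, Clec4a2 and Clec5a lay lower, with differences of -0.52, -0.47, -0.46 and -0.28, while Clec4e was at 0.12, Clec12a at 0.58, Clec4n at 0.81 and Clec10a at 2.003. Lyz2 alone made up 50.1 to 50.7% of the macrophage marker counts in the control libraries and 31.2 to 31.4% with DB2313, so scaling to their sum follows this gene for a large part.

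**Figure D3:**
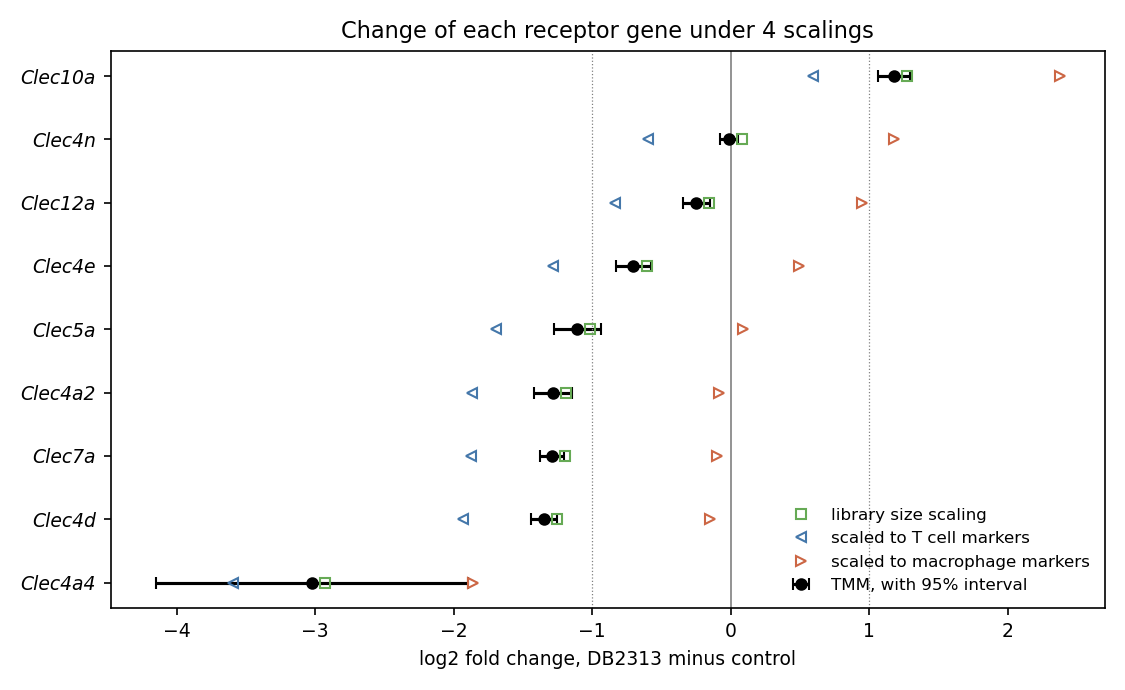
The log2 fold change (DB2313 minus control) of each receptor gene with TMM (black, bars for the 95% interval) and with 3 other scalings (open symbols), with dotted lines at a 2-fold change. The order of the genes is the same under all 4, by construction, because a scaling shifts all genes nearly alike. Clec10a is above 0 throughout, while Clec4n, Clec12a, Clec4e and Clec5a change sides of 0 with the macrophage marker scaling.

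Promoter sequences were examined because the inhibitor acts on Spi1, a factor of the ETS family that binds purine-rich DNA. RefSeq promoters of build GRCm38.p6 were at hand for 6 of the genes, Clec4a2, Clec4d, Clec4e, Clec5a, Clec7a and Clec12a, and the 250 bases before the RefSeq start were searched on both strands for GAGGAA and for the longer GAGGAAGT, which contains it. GAGGAA was found in 5 of the 6 genes and in 6 of their 7 windows, against 23.3% of all 32851 promoter windows of this length. GAGGAAGT was found in none of them, against 2.44% of all windows. All 6 genes were lower with TMM scaling, and no promoter was at hand for the unchanged Clec4n and the risen Clec10a. Whether a match goes with the change of a gene was thus not tested. Neither was found in the window of Clec4a2. The windows of Clec4a2 (123122440 to 123122689) and Clec12a lie inside the genes as counted, which begin at 123106428 and 129342691. They are thus not upstream of the counted gene starts. A match is a stretch of letters and not a measured binding site. The windows of a pair of called genes, Clec7a and Clec5a, and of the less changed Clec4e and Clec12a are shown 5′ to 3′ on the strand of the gene, with the letters of GAGGAA or of its complement TTCCTC in capitals. They lie at chr6:129472780-129473029 on the minus strand for Clec7a, which has a second start 6 bases upstream with the same match, at chr6:40585806-40586055 on the minus strand for Clec5a, at chr6:123289872-123290121 on the minus strand for Clec4e and at chr6:129349994-129350243 on the plus strand for Clec12a.
Clec7a: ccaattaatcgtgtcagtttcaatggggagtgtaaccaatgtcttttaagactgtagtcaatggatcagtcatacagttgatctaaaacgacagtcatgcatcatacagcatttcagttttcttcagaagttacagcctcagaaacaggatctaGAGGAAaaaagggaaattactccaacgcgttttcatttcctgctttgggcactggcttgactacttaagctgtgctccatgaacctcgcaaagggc
Clec5a: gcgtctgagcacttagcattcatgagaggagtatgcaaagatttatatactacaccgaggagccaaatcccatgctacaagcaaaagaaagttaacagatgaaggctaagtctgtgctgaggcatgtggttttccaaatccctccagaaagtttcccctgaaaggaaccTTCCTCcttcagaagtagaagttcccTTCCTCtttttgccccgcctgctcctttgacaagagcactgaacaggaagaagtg
Clec4e: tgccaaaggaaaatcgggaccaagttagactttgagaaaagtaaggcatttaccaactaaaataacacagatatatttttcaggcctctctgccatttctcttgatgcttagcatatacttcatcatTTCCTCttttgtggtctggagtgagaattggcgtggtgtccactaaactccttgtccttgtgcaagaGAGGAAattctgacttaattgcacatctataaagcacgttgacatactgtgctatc
Clec12a: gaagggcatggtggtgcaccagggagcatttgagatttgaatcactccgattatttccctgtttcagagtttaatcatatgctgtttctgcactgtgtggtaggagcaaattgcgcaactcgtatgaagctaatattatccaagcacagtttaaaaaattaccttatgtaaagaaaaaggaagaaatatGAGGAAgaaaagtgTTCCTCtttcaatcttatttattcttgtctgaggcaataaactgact
Clec7a had 1 match, which began 96 bases before the start. Clec5a had 2, at 81 and 55 bases, both on the opposite strand. Clec4e and Clec12a had 2 each, 1 on either strand, at 123 and 56 bases and at 61 and 47 bases. The single match of Clec4d began 240 bases before its start.

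The lectin genes around the 9 were read in the order of the chromosome. The stretch of chromosome 6 from Clec4a4 to Clec4e, between 122990367 and 123289870, holds 7 protein-coding genes, all of them C-type lectins, and all 7 were tested. Of these, 6 fell with TMM scaling, and the one that did not pass was Clec4n, which lies between Clec4b2 and Clec4d. Clec4a4 and Clec4b1 passed the filter on low counts through the control libraries alone and could only be lower, and without them 4 of 5 fell. Both stretches were chosen after values had been seen. Clec4b2 had a log2 fold change of -0.71 (SE 0.19), and the rarely counted Clec4b1 had a fitted value of -2.96 (SE 0.50), which that filter fixed in direction. Between Clec12a and Clec7a, from 129342691 to 129472779, Clec9a, a receptor for dead cells on cross-presenting dendritic cells, fell by 2.15 on the log2 scale (SE 0.20), and Clec1b, a platelet receptor, was at -0.047 (SE 0.21), which did not pass. Clec1b and Clec9a overlap at their ends. Clec12b and Clec1a had at most 4 and 12 counts in a library and were not tested.

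**Figure D4:**
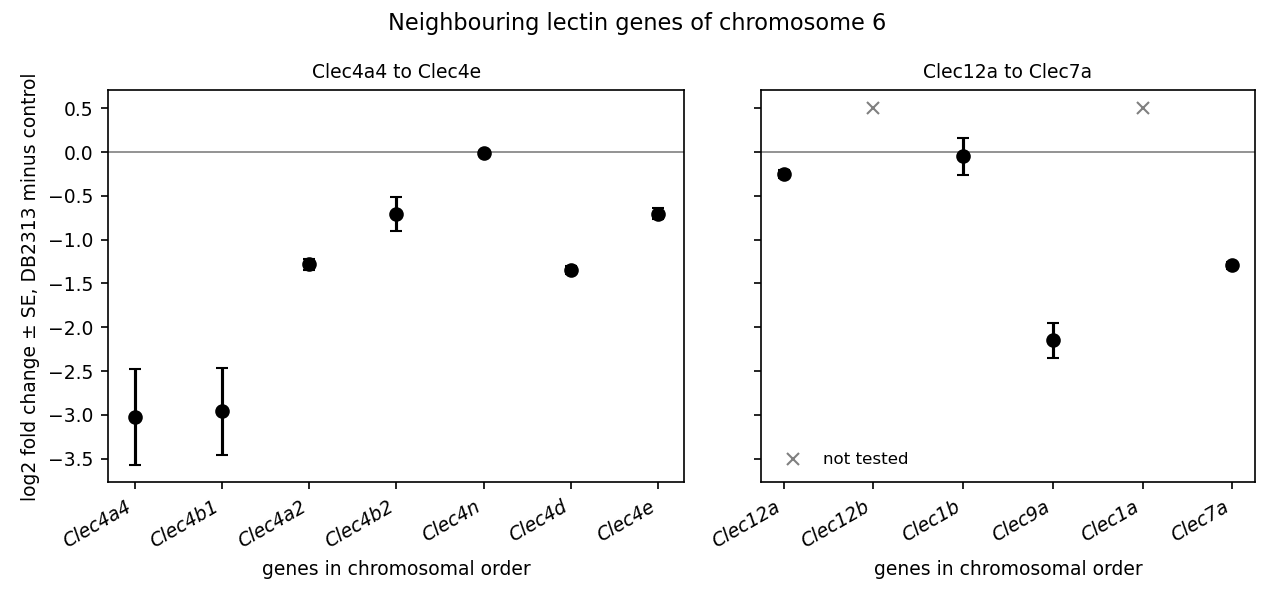
The log2 fold change (DB2313 minus control, bars for the standard error) of lectin genes in chromosomal order in the stretch from Clec4a4 to Clec4e (left) and from Clec12a to Clec7a (right), with crosses at an arbitrary height for genes that were not tested. Clec4n stands near 0 between Clec4b2 at -0.71 and Clec4d at -1.35.

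Of 59 other C-type lectin genes, 35 were tested, of which 17 fell, 5 rose and 13 did not pass, with a median log2 fold change of -0.39. Of the 35, 6 passed the filter on low counts through 1 group alone, 5 through the control group and 1 through the DB2313 group. Only that group had all 3 libraries above the cutoff, which favours a direction. Over the other 29 genes, 13 fell, 5 rose and 11 did not pass, and the median was -0.081. Among the 16 with a mean of at least 10 CPM, 9 fell and 3 rose. The largest falls there were in Clec4a1 (-1.81, SE 0.12) and Clec4a3 (-1.72, SE 0.11), both of the DCIR family, Vcan (-1.11, SE 0.091), a matrix proteoglycan, Cd302 (-1.04, SE 0.074), an endocytic lectin of myeloid cells, and Mrc1 (-0.84, SE 0.078), the macrophage mannose receptor. The rises included Klrd1 (0.81, SE 0.081), a chain of NK and CD8T cell receptors, and Asgr2 (0.48, SE 0.066), a chain of the asialoglycoprotein receptor. Among other lectin genes known from T or NK cells, Klrk1 at -0.12 (SE 0.079) and Cd69 at -0.081 (SE 0.067) did not pass. Of those with a mean under 10 CPM, Klrc1 (0.74, SE 0.15) and Klre1 (0.79, SE 0.27) were higher. Klrb1b (-0.53, SE 0.16), also under 10 CPM, was lower, and Klrg1 (0.18, SE 0.26) did not pass.

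Most signalling genes downstream of the receptors were lower as well with TMM scaling. Values of the signalling, phosphatase and cytokine genes under the other scalings are not given here. Scaling to the macrophage markers moved the median of all tested genes from 0.019 to 1.22, so the direction of these genes depends on the scaling too. Of 20 adaptor and Syk-Card9 genes, 14 fell, 1 rose and 5 did not pass, with a median log2 fold change of -0.54. Fcer1g, the adaptor of Clec4n, Clec4d and Clec4e, went from 358 ± 6.98 to 235 ± 13.1 CPM (SD, n = 3 each), a log2 fold change of -0.61 (SE 0.038). Tyrobp, the adaptor of Clec5a, went from 447 ± 23.7 to 230.1 ± 13.97 CPM (SD, n = 3 each), or by -0.96 on the log2 scale (SE 0.043), and the third adaptor Hcst rose by 0.20 (SE 0.068).

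Syk was at 281 ± 7.66 and 155 ± 2.99 CPM (SD, n = 3 each), with a log2 fold change of -0.86 (SE 0.036), and Card9 at 64.6 ± 0.369 and 40.6 ± 1.55 CPM, with one of -0.67 (SE 0.057). Bcl10, which joins Card9 and Malt1, changed by -0.22 (SE 0.056), while Malt1 itself was at -0.054 (SE 0.048) and did not pass. The Src family kinases Fgr (-2.09, SE 0.077), Lyn (-0.89, SE 0.041) and Src (-0.49, SE 0.064) fell, and Fgr was among the 2 called genes of this list. Plcg2 (-0.92, SE 0.042), Prkcd (-0.87, SE 0.043), Pik3ap1 (-0.60, SE 0.057), Nfatc2 (-0.40, SE 0.054) and Vav3 (-0.38, SE 0.092) were lower. Vav1 (-0.077, SE 0.037), Cblb (-0.082, SE 0.040) and Pik3cd (0.020, SE 0.032) did not pass.

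Of the phosphatases that inhibitory lectins recruit, Ptpn6 (SHP-1) fell by 0.58 (SE 0.035) and Inpp5d (SHIP-1) by 0.42 (SE 0.042) on the log2 scale, and Ptpn11 (SHP-2) was at -0.087 (SE 0.041), which did not pass. Of the 2 ligand genes, Lgals9, whose product binds Clec7a, rose by 0.28 (SE 0.035), and Sap130 was at -0.036 (SE 0.064). Among 12 cytokine and effector genes known to be induced through Card9, 9 were tested, 6 fell and none rose past the test (3 did not pass), and without the 2 that passed the filter through 1 group alone 5 of 7 fell. Those with a mean of at least 10 CPM were Tnf, which fell by 0.37 (SE 0.068), and Il12b, which fell by 0.82 (SE 0.091). Several of these genes are also made by activated T cells, and the source of the counts was not tested.

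**Figure D5:**
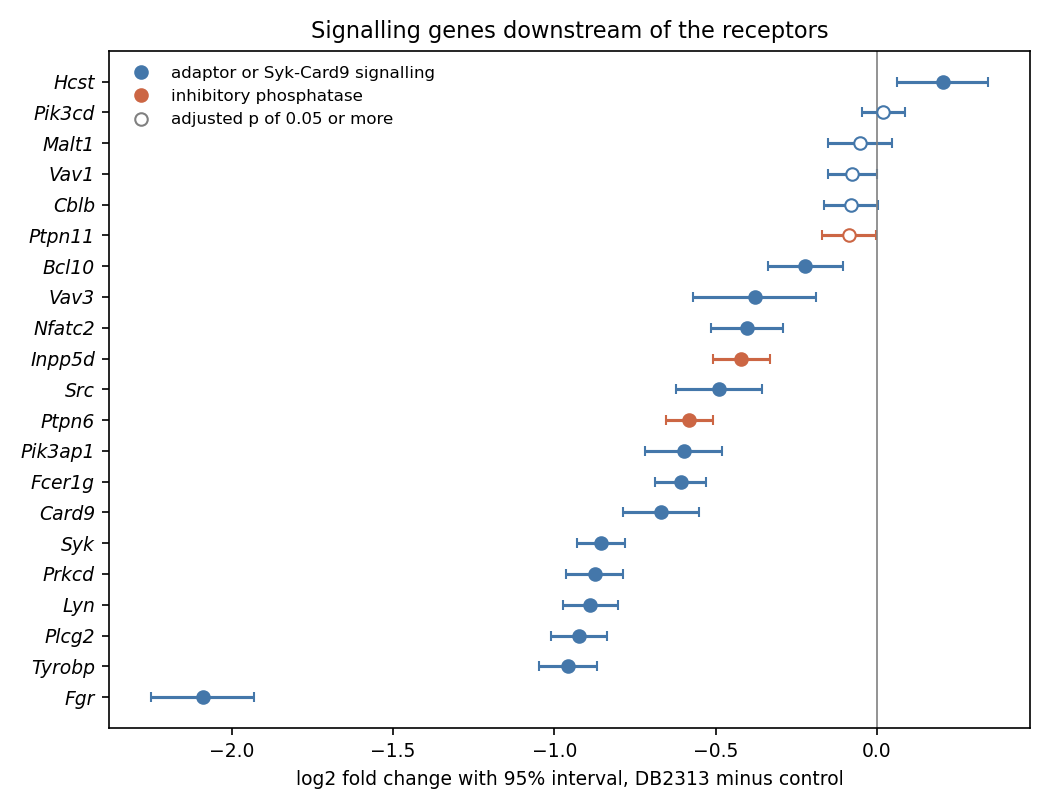
The log2 fold change with its 95% interval (DB2313 minus control) of adaptor and Syk-Card9 signalling genes (blue) and 3 inhibitory phosphatases (orange), with open circles for those at an adjusted p of 0.05 or more. Fgr lies beyond a 2-fold fall, Hcst is above 0, and Malt1, Vav1, Cblb, Pik3cd and Ptpn11 are open.

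The genes whose profile over the 6 libraries was nearest to that of the 3 most abundant receptors were searched among 9327 protein-coding genes averaging 10 CPM or more, by the Euclidean distance of centred log2 CPM. For Clec4n these were Srgn (0.027), Tmed2 (0.033) and Ube2n (0.035), genes that many cell types use and that were near no change as well. For Clec7a they were the chemokine Ccl5 (0.055), the macrophage gene Aif1 (0.12) and AA467197 (0.12). For Clec4d they included Ccl5 (0.071) and the mast cell protease Cpa3 (0.078). The points share libraries and group difference, and the distances are a description only.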

How the data were processed

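Per the labels and the paper, total RNA was sequenced on an Illumina instrument. The authors deposited raw counts per gene, without normalization, for 6 libraries. The paper names LifeScope for alignment and counting, while the submitters' processing notes list CASAVA 1.8, HISAT2 2.0.5 and featureCounts 1.5.0-p3, so the aligner cannot be told. The build, annotation and strandedness were not given in the sources used here. Of 54409 genes shared with GENCODE M21 (GRCm38), 98.3% had the same coordinates, the 9 receptor genes among them.

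Columns were matched to samples by their description labels. From the counts, genes that passed filterByExpr were tested with edgeR 4.0.16 (TMM, glmQLFit, glmQLFTest) in R 4.3.3, DB2313 against control, with Benjamini-Hochberg adjusted p-values. A rise or fall means an adjusted p under 0.05, and a call asks for an absolute log2 fold change over 1 as well. Standard errors were derived from the change and its F value, and CPM were scaled by TMM. Single ratios were compared with exact permutation tests. Pairs of replicates differed by more than counting noise, since the chi-square of a library pair divided by its genes was 2.48 to 3.81 within groups and 46.9 to 50.5 between them. A count of 0 allows up to 3 counts. The interval of the Clec4a4 count ratio covers counting error only, while those of the log2 fold changes also take in the spread between libraries. On simulated counts, edgeR recovered 200 of 200 changed genes among 14882 tested, with 11 false calls. The changed genes were well counted and all moved by the same fold, up or down in equal number. The simulation used a common dispersion and no shift in cell make-up, so rare genes, small changes and such shifts were not tested.

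The receptor genes and all lists were chosen with earlier results of these data known. The lists were 59 other C-type lectins, adaptor and Syk-Card9 signalling, phosphatases, ligands, Card9-induced genes, and markers of macrophages, monocytes, neutrophils, dendritic cells, mature dendritic cells, T cells, B cells, mast cells and basophils, eosinophils and progenitor granules. Genes were named as every listed receptor, list members with a mean of at least 10 CPM (for other lectins the 5 largest rises and falls), the 3 nearest profiles of the 3 most abundant receptors, and overlapping genes. Mgl2, the chromosomal neighbours and the lectins of T or NK cells under 10 CPM were added after their values were seen. A few genes that these rules select are counted in their lists but not reported here by name. Runs of 50 bases shared between genes were counted in GENCODE M21 transcripts. The alternatives were DESeq2 1.42.0, other scalings and filters, a replicate block, leaving out each library, and glmTreat. Replicate numbers did not pair the samples.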

Additional observations from a re-analysis of the deposited data

How the results depend on the processing

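Of 134 recomputed log2 fold changes of single receptor genes, 126 had an unchanged direction and test outcome, 1 was weaker, 1 stronger and 6 reversed. Clec4n came to 0.080 under library size scaling, to 0.049 under upper quartile scaling and to 1.18 under scaling to the macrophage markers, and with the last setting Clec4e was at 0.49, Clec5a at 0.088 and Clec12a at 0.95. These scalings shift all genes, which by construction moves such values. With it 1 receptor gene was called lower, 2 were called higher, 3 passed as lower and 4 as higher, and over all genes 139 were called lower, 10626 called higher, 322 passed as lower and 13494 as higher. With scaling to the T cell markers 0 receptor genes were called higher under edgeR, since Clec10a was at 0.59 there. In this setting 6 receptor genes were called lower, 8 passed as lower and 1 as higher. Over all genes 2490 were called lower, 51 called higher, 11499 passed as lower and 178 as higher. Library size scaling let 2 receptor genes and 4931 genes pass as higher, and lower genes were 70.8% of its calls against 79.5% with TMM. With at least 10 counts in every sample, where Clec4a4 was not tested, 103 genes were called higher, since fewer genes were tested. With glmTreat, which tests against the fold itself, 400 genes were called lower and 30 higher, with 4 receptor genes called lower in place of 5.

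With each library left out in turn, 5 receptor genes were called lower and 1 higher in all 6 fits, and Clec4a4 moved most, from -3.27 to -2.66. The replicate block gave 790 genes called lower and 201 higher, and changed no call of a receptor gene. Same-numbered samples did not deviate together, with correlations from -0.10 to -0.0038. Depth limits Clec4a4, with at most 22 counts in a library.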

Other observations

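The remaining marker lists gave the following values, as shares of all counts. Monocyte markers took 0.130 to 0.135% in the control group and 0.127 to 0.133% in the DB2313 group, and of 6 tested 4 fell and 1 rose. Mature dendritic cell markers took 0.412 to 0.419% and 0.300 to 0.305%, and all 5 fell. Progenitor granule genes took 0.0434 to 0.0452% and 0.0925 to 0.0944%, and all 4 rose. B cell markers took 0.00471 to 0.00514% and 0.00664 to 0.00673%, with 4 of 7 higher and 1 lower. Mast cell and basophil markers took 0.0855 to 0.0873% and 0.0619 to 0.0647%, with 2 of 6 higher and 2 lower. Eosinophil markers took 0.00783 to 0.00829% and 0.00495 to 0.00548%, with 2 of 4 lower. The part of these shifts in the results for the receptor genes was not tested. The processed pseudogene Gm44132 lies within Clec4a2 and had at most 2 counts in a library.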
